A study of Mus musculus with 3 samples.

Results

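The respiratory chain of cochlear cells was described here through 102 genes of the 32285 in the count table: 89 nuclear genes whose symbols start with Ndufa, Ndufb, Ndufc, Ndufs, Ndufv, Uqcr, Cox4i, Cox5, Cox6, Cox7, Cox8 or Atp5, and 13 protein-coding genes of the mitochondrial genome, whose symbols start with mt-. The nuclear genes comprised 36 subunits of complex I, 8 complex I assembly factors (the Ndufaf genes), 8 genes of complex III, 20 of complex IV and 17 of the ATP synthase. Ndufa4 and Ndufa4l2 were placed with complex IV, to which the Ndufa4 protein belongs despite its name. No gene was chosen for its level, and all 102 had at least 1 UMI (unique molecular identifier, a tag that counts each captured RNA molecule once). Cox7b2 and Cox8c, known as testis genes, had 4 UMIs and 1 UMI in all, so that 100 genes carry the results.

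Cochleae of C57BL/6J mice were studied in 3 samples, each 1 library from 6 mice. Control mice heard no noise, the HHL (hidden hearing loss) mice received 110 dB for 2 hours, and the NIHL (noise-induced hearing loss) mice received 115 dB for 4 hours over 3 days, with tissue taken 6 hours after the last exposure in the noise groups. The merged table marks the libraries only by a barcode suffix of 1, 2 or 3, and no label used here ties a suffix to a sample. They are therefore called library 1, 2 and 3, no value is assigned to control, HHL or NIHL, and with 1 library per group there is no test. Below, 3 values in a row are those of libraries 1, 2 and 3 in that order.

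After the filters 16883, 9602 and 10703 barcodes remained, with 131084591, 92188324 and 144942023 UMIs and a median of 5464, 6293.5 and 8098 UMIs per cell. Between 31 and 53 barcode sequences were shared by any 2 libraries. Cells were assigned to 25 types from 24 lists of marker genes, none of them a respiratory chain gene: 29899 cells received a type, and 14 types had at least 50 cells in each library. Each type name stands for cells that resemble that type by markers. Myeloid cells prevailed, from promyelocyte-like progenitors to mature neutrophils and monocytes, while hair cells numbered 14, 8 and 0.

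Oxidative phosphorylation passes electrons from NADH and succinate through complexes I, II, III and IV to oxygen, and the proton gradient this builds drives the ATP synthase. Most subunits are made from nuclear genes and imported, while the 13 mitochondrial genes encode 7 complex I subunits, cytochrome b of complex III, 3 complex IV subunits and 2 ATP synthase subunits. Several complex IV subunits exist as pairs of nuclear paralogs with different tissue use. In the cochlea, the stria vascularis, whose intermediate cells are melanocyte-like, sustains the endocochlear potential with ion pumps and is rich in mitochondria. Mature neutrophils are known to have few mitochondria and to rely on glycolysis.

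Levels are given as UMIs of a gene per 1000000 UMIs (CPM) of a cell type in a library. The counts come from captured 3′ ends and are not divided by gene length, so that they order captured molecules, not proteins. Over all filtered cells the most counted mitochondrial genes were mt-Co1, the catalytic subunit of complex IV, at 8841, 6237 and 5332 CPM, mt-Co3 at 6395, 5785 and 5983 CPM and mt-Atp6 at 6892, 4505 and 6002 CPM. Their order differed between libraries, with mt-Co1 first in libraries 1 and 2 and mt-Atp6 in library 3. mt-Nd6, which lies on the light strand unlike the other mitochondrial protein genes, was the lowest at 38.8 CPM over the libraries together. Among nuclear genes, over the libraries together, the most counted pair of complex IV was Cox4i1 with 925 and Cox8a with 779 CPM, that of the ATP synthase Atp5l with 634 and Atp5e with 630.06 CPM (Atp5h had 629.9 CPM), that of complex III Uqcrh with 533 and Uqcrq with 354 CPM, and that of complex I Ndufb9 with 345.4 and Ndufb7 with 345.1 CPM. Pairs this close traded places between libraries, with Atp5h at 611 and Atp5l at 569 CPM and Ndufb7 at 362 and Ndufb9 at 275 CPM in library 1. Assembly factors were rarer, led by Ndufaf8 at 71.0 and Ndufaf3 at 33.4 CPM. The tissue-restricted paralogs lay lower over the whole library, with Cox6b2 at 50.4, Cox6a2 at 8.9, Cox7a1 at 2.8, Cox8b at 2.6, Cox4i2 at 2.0 and Ndufa4l2 at 1.1 CPM.

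The 89 nuclear genes together took 1.71%, 2.28% and 2.47% of all UMIs, and the 13 mitochondrial genes 3.81%, 2.80% and 3.15%. Cell types differed far more than libraries did. Mature neutrophil-like cells had the lowest nuclear share among the 14 compared types in every library, at 0.877%, 1.03% and 0.902%, and strial intermediate or melanocyte-like cells the highest of all 25 types in every library, at 3.48%, 4.59% and 3.54%. The mitochondrial share was again highest in strial cells, at 11.9%, 11.5% and 11.1%, and low in mature neutrophil-like cells, at 1.68%, 0.748% and 0.692%, although intermediate neutrophil-like cells were lowest in library 1 with 1.63%. Between these ends the order of the types differed between the sets. Macrophage-like cells held 1.46%, 1.89% and 1.67% nuclear but 6.37%, 3.74% and 3.97% mitochondrial UMIs, whereas monocyte-like cells held 2.24%, 2.58% and 2.88% nuclear but 4.45%, 3.04% and 3.05% mitochondrial UMIs. The ratio of mitochondrial to nuclear UMIs was thus 4.35, 1.98 and 2.38 in macrophage-like and 1.99, 1.18 and 1.06 in monocyte-like cells, and it was higher in macrophage-like cells in each library. Schwann-like cells had a ratio of 5.59, 2.41 and 2.73. Over the 14 compared types of a library, which share depth and the same denominator, the nuclear and mitochondrial shares had Pearson's r of 0.55, 0.59 and 0.58 and Spearman's rho of 0.24, 0.37 and 0.35.

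**Figure D1:**
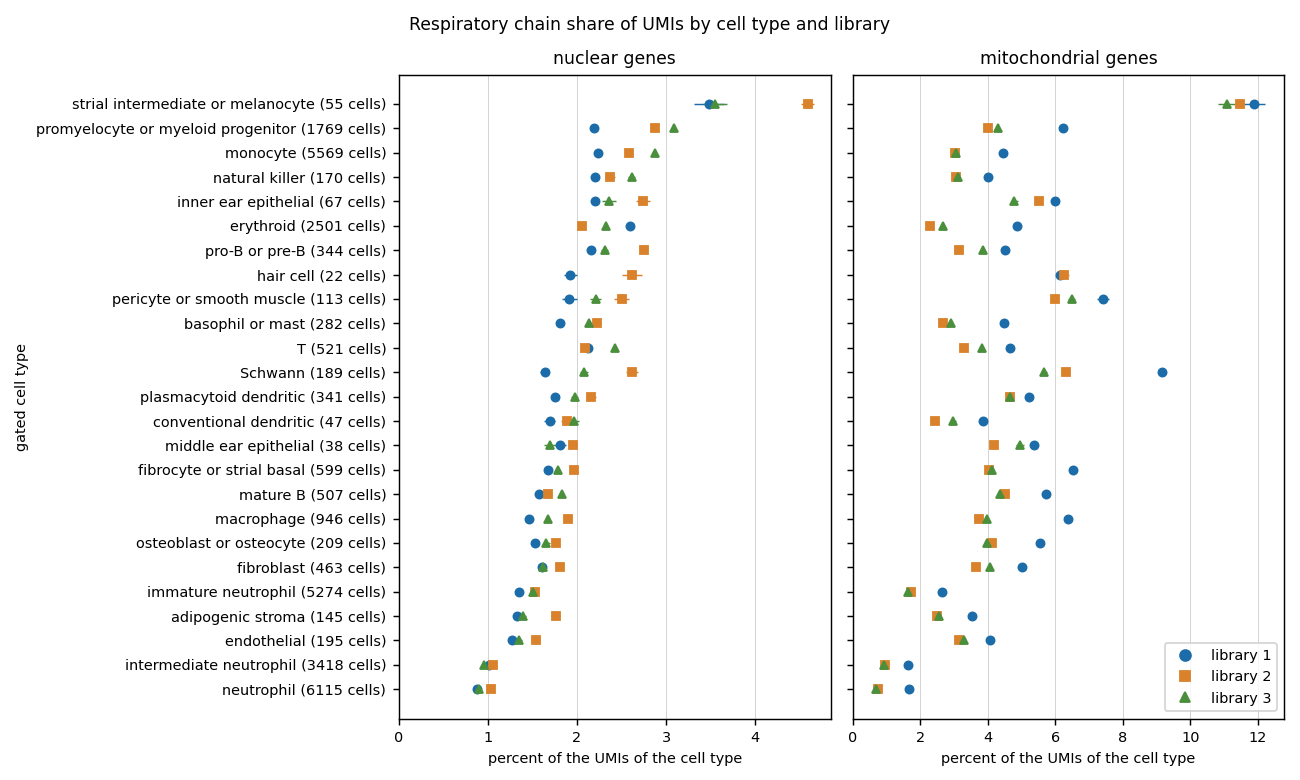
Share of all UMIs of a cell type (x axis, percent) taken by the 89 nuclear (left) and 13 mitochondrial (right) genes in 25 gated cell types (y axis, with the cells of all libraries); markers are libraries and bars are exact 95% intervals of counting error, often smaller than the marker. Strial cells stand at the top of both panels, with 3.48% to 4.59% nuclear and 11.1% to 11.9% mitochondrial UMIs, and mature neutrophil-like cells at the bottom of the nuclear panel.

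The 55 strial intermediate or melanocyte-like cells (9, 30 and 16) carried Dct, a melanin synthesis enzyme, and Kcnj10, the potassium channel of intermediate cells, in every cell. Both belong to the marker list by which these cells were chosen. The melanocyte marker Tyrp1, of the same list, was at 0. Respiratory chain RNA was high across complexes in these cells: 19 of 83 counted nuclear and 12 of 13 mitochondrial genes were at least 2-fold above the median of the 14 compared types in every library. Over all genes the share past this fold was 7.24%. The 95% intervals of the nuclear share, 3.31% to 3.65%, 4.52% to 4.66% and 3.41% to 3.68%, lay above those of every other type in their library. Among nuclear genes the call covered 7 of 36 counted in complex I, 3 of 8 in complex III, 5 of 15 in complex IV, 3 of 17 in the ATP synthase and 1 of 7 assembly factors. Ndufb9, an accessory subunit of complex I, stood 3.97-, 3.44- and 2.93-fold above that median, Cox6a1 of complex IV 3.73-, 3.43- and 2.79-fold and Uqcr10 of complex III 3.58-, 2.99- and 3.83-fold. Atp5o, the stalk subunit of the ATP synthase, stood 3.27-, 2.59- and 2.16-fold above it, and Cox4i1 2.82-, 3.14- and 2.32-fold. The other nuclear genes past the fold were Ndufb6, Ndufa1, Ndufa12, Ndufab1, Ndufb2, Ndufb8, Ndufaf4, Uqcrb, Uqcr11, Cox7a2, Cox5a, Cox8b, Atp5b and Atp5mpl. Among the mitochondrial genes, mt-Nd4l stood 3.84-, 7.87- and 4.71-fold, mt-Nd2 3.63-, 5.63- and 4.00-fold, mt-Nd5 3.21-, 4.74- and 4.80-fold and mt-Cytb 3.12-, 5.28- and 3.32-fold above the median. The gene mt-Co1 was the 1 of 13 outside the call. The median log2 ratio over the nuclear genes was 1.002, 1.19 and 0.85 and over the mitochondrial genes 1.43, 1.94 and 1.68, against 1.62, 0.25 and 1.26 over all genes counted. The median over all genes was thus above that of the nuclear genes in libraries 1 and 3 and below it in library 2. Counts under 3 are set to 3 in these ratios, and the cells had a median of 3530, 13500.5 and 4710 UMIs. The part of either in the medians was not tested.

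Within complex IV the strial cells also differed in composition. Cox8b, the paralog of Cox8a known from heart, skeletal muscle and brown fat, gave 25, 456 and 104 UMIs in them, 532, 1269 and 1405 CPM, and was seen in 7 of 9, 28 of 30 and 15 of 16 cells. Cox8b made 22.3% (95% interval 15.0% to 31.2%), 32.05% (29.6% to 34.5%) and 53.1% (45.8% to 60.2%) of the UMIs of Cox8a and Cox8b together, and the interval of library 3 did not meet the others. Of all 945 Cox8b UMIs, 670 lay in cells with a type, 585 of them in strial cells, while 159 lay in 28 cells without a type and 116 in 22 cells passing several gates. Among the other types it was rare. It had 21 UMIs in 11 of 599 fibrocyte-like cells, 4 in 6115 mature neutrophil-like cells, 8 in 67 inner ear epithelial cells, 6 in 22 hair cells and 0 in 189 Schwann-like, 521 T, 170 natural killer and 341 plasmacytoid dendritic cells. A count of 0 in 189 cells allows up to 1.59% of cells with a UMI. Cox7a1, the muscle paralog of Cox7a2, was uneven between libraries in strial cells, with 2, 97 and 3 UMIs or 42.6, 270 and 40.5 CPM, and was seen in 22 of the 30 cells of library 2. Those 30 cells also held Kcne1, a channel subunit of strial marginal cells, with 48 UMIs in 4 cells against 0 in libraries 1 and 3, and neutrophil markers at 1250 CPM against 255.5 and 284. The part of either in the result was not tested.

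The promoters of this pair are shown because their sequences differ in the density of CG dinucleotides, a feature common at promoters of broadly used genes. The 250 bases before the start site (RefSeq, GRCm38.p6, minus strand, CG in capitals) were 19:7217617-7217866 for Cox8a, with 11 CG, and 7:140900447-140900696 for Cox8b, with 1 CG.
Cox8a: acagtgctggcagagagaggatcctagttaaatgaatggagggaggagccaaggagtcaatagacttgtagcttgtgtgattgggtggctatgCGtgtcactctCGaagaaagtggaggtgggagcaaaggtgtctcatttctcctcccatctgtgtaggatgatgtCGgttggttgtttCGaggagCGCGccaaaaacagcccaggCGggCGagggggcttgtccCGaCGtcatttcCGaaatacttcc
Cox8b: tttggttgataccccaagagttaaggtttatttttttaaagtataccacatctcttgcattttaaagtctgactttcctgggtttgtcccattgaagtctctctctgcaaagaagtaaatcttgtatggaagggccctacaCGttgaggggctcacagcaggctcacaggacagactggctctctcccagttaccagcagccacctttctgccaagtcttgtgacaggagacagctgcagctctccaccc
Cox8b was the 1 promoter among 77 of 72 matched nuclear genes with at most 1 CG (1.30%), while 18.8% of all 32851 promoters in the reference had so few. The median was 14 CG in the 77 promoters and 6 in all. Cox6b2, another paralog of restricted use, had 8 CG and its partner Cox6b1 14. Cox6a2, Cox4i2 and Ndufa4l2 had no promoter in the reference, so few CG cannot be tied to restricted use here.

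The clearest paralog difference among the 14 compared types was in plasmacytoid dendritic cells, the interferon-producing dendritic cells, which were marked by Siglech and Ccr9. Cox6a2, the paralog of Cox6a1 known from heart and skeletal muscle, gave 747, 431 and 613 UMIs there, 733, 1330 and 1161 CPM, against 215, 57 and 114 UMIs of Cox6a1. Cox6a2 thus made 77.7% (95% interval 74.9% to 80.2%), 88.3% (85.1% to 91.0%) and 84.3% (81.5% to 86.9%) of the pair. It was seen in 159 of 203, 40 of 54 and 76 of 84 of these cells, and in 12 of 6115 mature neutrophil-like cells (0.196%), at median depths of 4687, 5321 and 5716.5 against 2549, 2962 and 3801 UMIs. Cox6a2 was the single gene of 83 nuclear and 13 mitochondrial genes counted that was called higher in plasmacytoid dendritic cells, where 11.2% of all genes passed. Natural killer-like cells had 31, 5 and 10 UMIs of Cox6a2, 60.0, 17.9 and 15.6 CPM, seen in 8, 2 and 6 cells, and were called for it beside 4.9% of all genes. Pro-B or pre-B-like cells, which were not called, reached 23.5 CPM in library 2, above the natural killer-like cells there. The summed list of plasmacytoid markers stood at 149, 200 and 167 CPM in natural killer-like and 9593, 8877 and 10781 CPM in plasmacytoid dendritic cells. Of this list Siglech, Ccr9 and Cd300c were at 0 in the natural killer-like cells of all libraries, and its other markers made up the sum. Cells passing both gates had been left out, so a low list there follows in part from the gating. Of all 3285 Cox6a2 UMIs, 634 lay in cells without a type and 460 in cells passing several gates. The part of plasmacytoid RNA in the result was not tested. In 463 fibroblast-like, 67 inner ear epithelial, 113 pericyte-like and 55 strial cells Cox6a2 was at 0, and for the 113 cells this allows up to 2.65% with a UMI.

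The reference holds a promoter for Cox6a1, shown here because it carries the binding core of NRF1, a transcription factor of respiratory chain genes, more than once. The window was 5:115348959-115349208 (RefSeq, GRCm38.p6, minus strand), and capitals mark 2 NRF1 cores (GCGCA, any base, GCGC), the first at -162 and the last at -117.
Cox6a1: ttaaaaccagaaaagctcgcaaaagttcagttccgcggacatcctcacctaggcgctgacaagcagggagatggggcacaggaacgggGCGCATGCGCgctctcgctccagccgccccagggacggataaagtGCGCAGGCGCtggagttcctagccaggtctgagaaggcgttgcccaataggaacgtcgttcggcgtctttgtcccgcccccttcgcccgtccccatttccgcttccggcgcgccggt
Of the 77 promoters of the 72 matched nuclear genes, 13 held this core on either strand (16.9%), belonging to 12 genes, Atp5c1, Atp5g2, Atp5h, Atp5k, Cox6a1, Ndufa5, Ndufa8, Ndufa11, Ndufaf4, Ndufb4, Ndufs5 and Ndufs6, against 3.74% of all promoters of the same length. The ETS site CCGGAAGT was found in 3.90% against 2.88% and the YY1 core AAGATGGC in 1.30% against 1.56%. The estrogen-related receptor site AAGGTCA was found in 6.49% against 4.08%, the TATA box TATAAA in 10.4% against 12.4%, the GATA site AGATAA in 7.79% against 9.99% and the MITF E-box CATGTG in 5.19% against 12.3%. The NRF1 core itself holds CG, and the median was 14 CG in the 77 promoters against 6 in all. The part of CG density in these shares was not tested. A match describes letters in this window only.

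Pericyte or smooth muscle-like cells (35, 26 and 52) carried other complex IV paralogs. Ndufa4l2, a hypoxia-inducible relative of Ndufa4, gave 28, 29 and 84 UMIs in them, 262, 231 and 380 CPM, beside 23, 63 and 58 UMIs of Ndufa4. Its share of the pair was 54.9% (95% interval 40.3% to 68.9%), 31.5% (22.2% to 42.0%) and 59.2% (50.6% to 67.3%), and it was seen in 11, 14 and 29 cells. Ndufa4l2 had 0 UMIs in 6115 mature neutrophil-like cells, which allows up to 0.0491% of cells with a UMI, and 0 in T, natural killer and plasmacytoid dendritic cells. Cox4i2, the paralog of Cox4i1 known from lung and oxygen sensing, gave 19, 23 and 49 UMIs in pericyte-like cells, 178, 183 and 222 CPM, or 17.1% (10.6% to 25.4%), 14.6% (9.46% to 21.0%) and 20.2% (15.4% to 25.9%) of the pair with Cox4i1. The 3 intervals of Cox4i2 overlapped, and those of Ndufa4l2 did not meet between libraries 2 and 3. Of all 732 Cox4i2 UMIs, 91 lay in pericyte-like and 130 in 5569 monocyte-like cells, there at no more than 2.20 CPM. Another 234 lay in cells without a type and 80 in cells passing several gates. Inner ear epithelial cells had between 6.35 and 81.5 CPM of Cox4i2. Of all 389 Ndufa4l2 UMIs, 56 lay in cells without a type and 68 in cells passing several gates. Including Ndufa4l2 and Cox4i2, 3 of 83 nuclear and 4 of 13 mitochondrial genes were called higher in pericyte-like cells, with 11.4% of all genes past the fold. The others were Ndufaf4, 2.79-, 3.52- and 2.23-fold, mt-Nd4l, 2.29-, 3.62- and 2.73-fold, mt-Nd2, 2.27-, 3.19- and 2.28-fold, mt-Nd6, 2.17-, 4.02- and 2.81-fold, and mt-Cytb, 2.14-, 2.82- and 2.28-fold. The nuclear count of 3 is under what 11.4% of 83 would give.

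Fibroblast-like and fibrocyte or strial basal-like cells were the only compared types called for Ndufa4l2, at far lower levels. Fibroblast-like cells had 11, 13 and 25 UMIs of it, 14.7, 14.0 and 22.3 CPM, and fibrocyte-like cells 6, 5 and 19 UMIs, 8.79, 3.38 and 8.14 CPM. The summed list of pericyte markers stood at 417, 457 and 303 CPM in fibroblast-like and 265, 295 and 281 CPM in fibrocyte-like cells. In pericyte-like cells it stood at 29011, 29551 and 27267 CPM. Of this list Higd1b and Myh11 were at 0 in fibrocyte-like cells, and its other markers made up the sum there. Cells that also passed the pericyte gate had been left out, so a low list in both types follows in part from the gating. The Ndufa4l2 levels in both types rest on few UMIs, 5 to 25 in a library. The part of pericyte RNA in the result was not tested. Fibrocyte-like cells also held Cox7a1, with 9, 62 and 36 UMIs or 13.2, 42.0 and 15.4 CPM, 4.25%, 8.68% and 4.26% of Cox7a1 and Cox7a2 together, in 5, 17 and 22 cells. In both types the share of all genes past the fold was large, 25.6% in fibroblast-like and 22.9% in fibrocyte-like cells.

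Erythroid-like cells held Cox6b2, the paralog of Cox6b1 known from testis. It gave 177, 2110 and 1795 UMIs, 160, 150 and 141 CPM, and made 23.6%, 25.2% and 21.6% of the UMIs of the pair. Over the libraries together 1270 of 2501 erythroid-like cells had a Cox6b2 UMI (50.8%), against 96 of 6115 mature neutrophil-like cells (1.57%), at median depths of 7796.5, 7598 and 10167.5 against 2549, 2962 and 3801 UMIs. Its level was 10.2-, 7.40- and 10.5-fold above the median of the other types, and hemoglobin genes took 15.0%, 33.8% and 28.1% of the erythroid UMIs. Basophil or mast-like cells were the other compared type called for it, with 29, 39 and 44 UMIs, 39.2, 64.7 and 49.7 CPM, or 2.49-, 3.18- and 3.72-fold. Progenitor-like cells had 41.7, 70.2 and 23.6 CPM, above the basophil-like cells in libraries 1 and 2, and were not called. Of all 18571 UMIs of Cox6b2, 46.8% lay in cells with a type and 47.2% in cells without one. Cox6b2 was the 1 member called higher in basophil-like cells, with 7.67% of all genes past the fold, and in erythroid-like cells it was joined by Ndufb9 at 2.70-, 2.21- and 2.43-fold, with 7.26% past it.

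**Figure D2:**
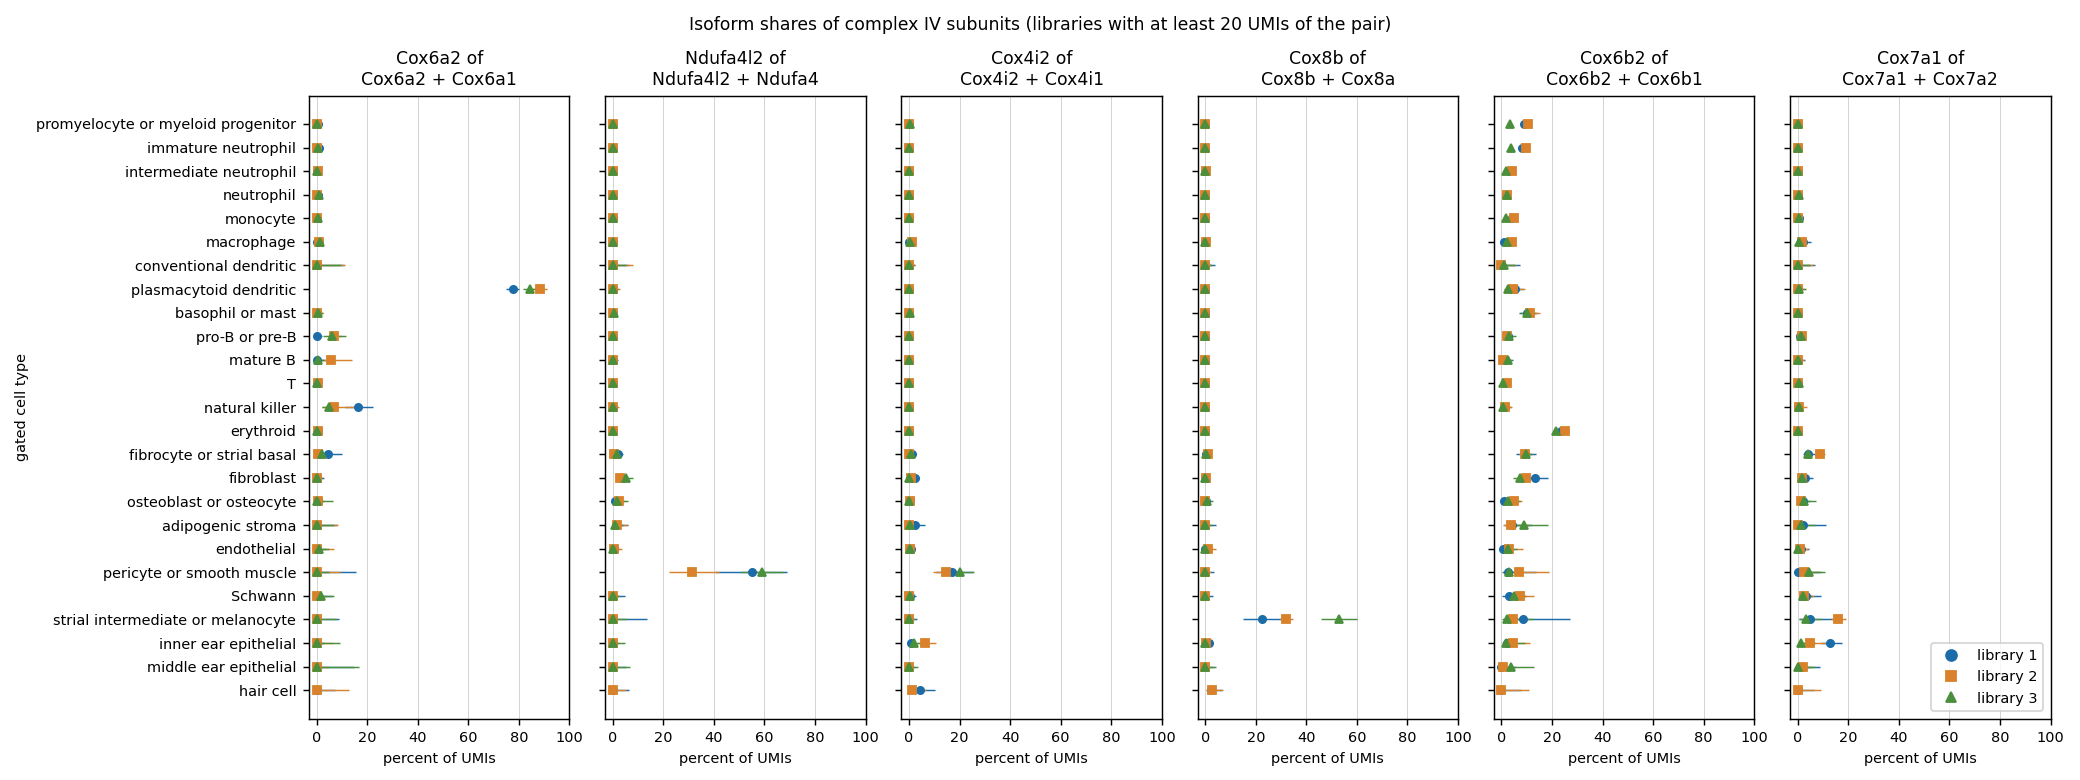
Share of a complex IV paralog in the UMIs of its pair (x axis, percent) for 6 pairs in 25 gated cell types (y axis); markers are libraries with at least 20 UMIs of the pair and bars are exact 95% intervals. Cox6a2 stands at 77.7% to 88.3% in plasmacytoid dendritic cells, Ndufa4l2 at 31.5% to 59.2% in pericyte-like cells, Cox8b at 22.3% to 53.1% in strial cells and Cox6b2 at 21.6% to 25.2% in erythroid-like cells, each above the other types of its panel.

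Apart from these paralogs, few members set a type apart. Over the 14 compared types 12 calls of a higher member were made in all, some of them of the same gene. Progenitor-like cells had 3 of 85 counted nuclear genes, with 4.64% of all genes past the fold: Atp5g1, a gene of the c ring of the ATP synthase, at 2.46-, 2.32- and 3.75-fold, Ndufb3 at 2.49-, 2.15- and 2.06-fold and Uqcrb at 2.01-, 2.34- and 2.44-fold. The assembly factor Ndufaf7 was called in monocyte-like cells at 2.24-, 2.19- and 2.25-fold, with 5.88% of genes past the fold, and Ndufaf6 in pro-B or pre-B-like cells at 2.14-, 3.44- and 2.47-fold, with 9.11% past it. Among the smaller types, Schwann-like cells had mt-Nd4l at 2.98-, 3.43- and 2.49-fold, mt-Cytb at 2.89-, 2.87- and 2.03-fold and Ndufa13 at 2.74-, 2.10- and 2.14-fold, beside 13.2% of all genes. Inner ear epithelial cells had Ndufa12 at 2.12-, 2.16- and 2.04-fold beside 15.6% of all genes. Immature, intermediate and mature neutrophil-like cells had no higher member, beside 4.14%, 6.79% and 8.55% of all genes, nor had macrophage-, mature B- and T-like cells, beside 14.2%, 7.79% and 7.8%. The count of 12 depends on the scaling: it was 51 with TMM factors and 21 with hemoglobin UMIs left out of the denominator. The share of all genes was not counted under either setting.

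Respiratory chain RNA stepped down along the neutrophil series. The nuclear share was 2.19%, 2.88% and 3.09% in promyelocyte or myeloid progenitor-like cells, 1.35%, 1.53% and 1.51% in immature, 1.01%, 1.05% and 0.955% in intermediate and 0.877%, 1.03% and 0.902% in mature neutrophil-like cells. The mitochondrial share was 6.23%, 4.00% and 4.29%, then 2.65%, 1.74% and 1.63%, then 1.63%, 0.955% and 0.919%, and 1.68%, 0.748% and 0.692% at the end. Most of the difference thus lay between the progenitor-like and the intermediate cells, and the last step was small. From progenitor-like to mature cells the nuclear share differed 2.50-fold (95% interval 2.48 to 2.52), 2.79-fold (2.76 to 2.82) and 3.42-fold (3.39 to 3.46), and the mitochondrial share 3.70-, 5.35- and 6.20-fold. In UMIs per cell, the nuclear set went from 303, 437 and 629 to 24.8, 34.1 and 36.8 and the mitochondrial set from 863, 607 and 874 to 47.5, 24.7 and 28.2. All UMIs per cell went from 13861, 15171 and 20376 to 2824, 3305 and 4072, so both sets differed by more than the cells' total RNA.

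**Figure D3:**
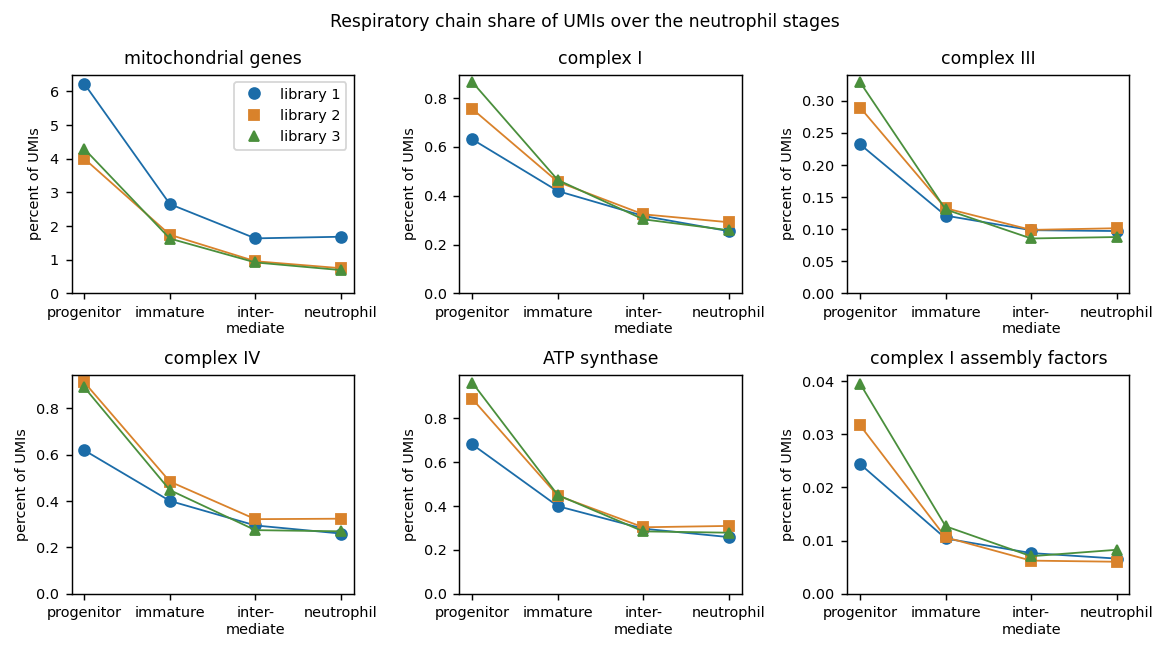
Share of UMIs (y axis, percent, from 0) of the mitochondrial genes and of each nuclear group over 4 gated stages of the neutrophil series (x axis), with 1 line per library. In each panel the progenitor-like cells are highest in every library, and the intermediate and mature cells lie close together.

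Gene by gene, 62 of 85 counted nuclear and 13 of 13 mitochondrial genes were at least 2-fold higher in progenitor-like than in mature neutrophil-like cells in every library, and none was 2-fold higher in the mature cells. Over all genes the same call took 33.8% toward the progenitor-like and 12.4% toward the mature cells. By group the call covered 26 of 36 complex I genes, 7 of 8 assembly factors, 5 of 8 complex III genes, 9 of 16 complex IV genes and 15 of 17 ATP synthase genes. The median log2 ratio was 1.57, 1.65 and 1.97 over the nuclear and 2.17, 2.73 and 2.85 over the mitochondrial genes, against 0.76, 0.66 and 0.66 over all genes. Assembly factors had the highest group median, 2.80, 3.28 and 3.54, and complex IV the lowest, 1.37, 1.14 and 1.78. Both groups include genes with few UMIs in mature cells, such as Ndufaf5 with 4, 3 and 4 and Cox4i2 with 3, 1 and 0. By summed UMIs assembly factors again differed most, 3.69-, 5.27- and 4.78-fold. Complex IV differed 2.38-, 2.82- and 3.31-fold and complex I 2.48-, 2.59- and 3.35-fold, so complex IV was not lowest in library 2.

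Single genes spread widely around these medians. Atp5g1 stood at 406, 601 and 992 CPM in progenitor-like and 30.2, 45.3 and 64.4 CPM in mature cells, a ratio of 13.5, 13.3 and 15.4, and Atp5g2, which encodes the same c subunit, had a ratio of 9.32, 11.9 and 10.7. The assembly factors Ndufaf4 and Ndufaf2 had ratios of 12.96, 19.4 and 15.0 and of 19.6, 22.8 and 11.5. In mature cells they had 21, 16 and 27 and 14, 17 and 26 UMIs. Complex I subunits Ndufa5 and Ndufc2 had ratios of 14.2, 12.6 and 11.1 and of 10.7, 9.18 and 9.57. These genes were lower in the mature cells by far more than the sets they belong to. The complex IV gene Ndufa4 had a ratio of 7.22, 8.12 and 8.67, and mt-Nd1 led the mitochondrial genes with 5.82, 10.3 and 12.7. At the other end, Cox7a2l, a supercomplex assembly factor, had ratios of 1.15, 1.18 and 0.97. Small ratios were also found for Ndufa3, 1.16, 1.35 and 1.47, Atp5l, 1.12, 1.35 and 1.53, Ndufa13, 1.20, 1.22 and 1.66, and Ndufa7, 1.40, 1.27 and 1.71. Ndufaf7, an arginine methyltransferase needed for complex I assembly, went the other way in each library, with 13.9, 15.8 and 16.9 CPM in progenitor-like and 27.2, 19.7 and 36.0 CPM in mature cells, but missed the 2-fold rule.

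S100a8 and S100a9, alarmin genes of neutrophils, took 3.09%, 2.36% and 2.32% of progenitor-like and 21.3%, 26.2% and 26.5% of mature UMIs, which lowers every other share. With them left out of the denominator 48 nuclear and 13 mitochondrial genes passed, with TMM factors 42 and 11, and in cells of 2000 to 8000 UMIs, which brings the depths together, 39 and 13. The share of all genes was not counted under these settings. Against the median of the other 13 compared types, mature neutrophil-like cells were 2-fold lower in every library for 46 of 82 counted nuclear and 12 of 13 mitochondrial genes, with 36.5% of all genes past that fold, and in intermediate cells the counts were 37 nuclear and 12 mitochondrial beside 36.8%. Immature cells had 6 nuclear and 4 mitochondrial genes lower beside 18.8%, so their nuclear count was under the share of all genes.

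**Figure D4:**
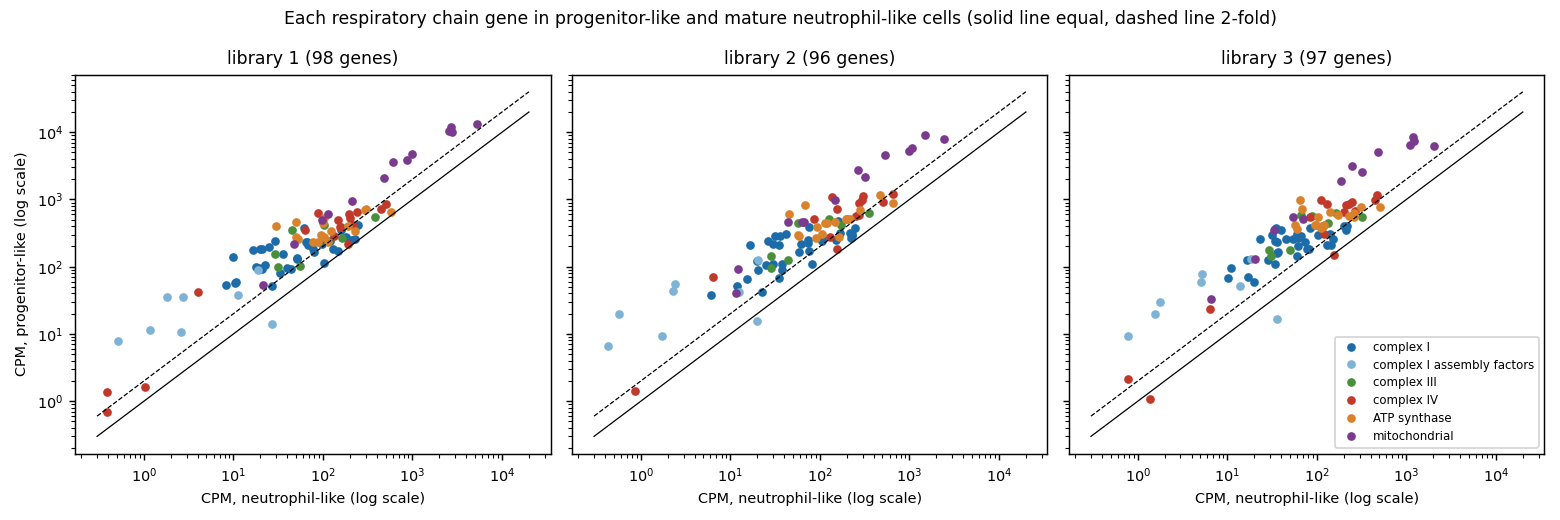
Each respiratory chain gene with at least 3 UMIs in both stages of a library is a point. Axes are CPM in mature neutrophil-like (x axis, log scale) and progenitor-like cells (y axis, log scale) in each library. Colours are the groups, the solid line is equality and the dashed line 2-fold. Nearly all points lie above the solid line, and the 13 mitochondrial genes lie above it in each library.

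Genes around the chain were taken from lists of the pathway. In mature neutrophil-like cells 2 of 4 complex II genes (Sdha and Sdhc), 2 of 3 counted cytochrome c and supercomplex genes (Cycs and Cyc1), 10 of 17 counted complex IV and III assembly genes and 6 of 14 counted genes of mitochondrial RNA synthesis and biogenesis were 2-fold lower than the median of the other types, beside 36.5% of all genes. Cycs, cytochrome c, stood at 26.8, 33.2 and 47.9 CPM there against 207, 320 and 548 CPM in progenitor-like cells, and Tfam, which packages and transcribes mitochondrial DNA, at 3.5, 4.1 and 5.9 against 27.7, 29.9 and 36.2 CPM. Glycolysis genes were split in mature neutrophil-like cells: 5 of 18 were higher (Slc2a1, Slc2a3, Hk3, Gpi1 and Pkm) and 3 lower (Pfkm, Tpi1 and Ldhb), with 8.55% of all genes higher. The glucose transporter Slc2a3 stood at 474, 487 and 373 CPM there against 13.5, 9.9 and 11.8 CPM in progenitor-like cells. Erythroid-like cells had 14 of 18 glycolysis genes lower and 2 higher (Hk1 and Pfkm), beside 24.2% of all genes lower, and the ATPase inhibitor Atpif1 at 2113, 2501 and 1814 CPM.

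In strial cells 3 of 4 complex II genes (Sdha, Sdhb and Sdhc), 8 of 18 glycolysis genes and 3 of 14 counted biogenesis genes (Ppargc1a, Esrra and Polg) were past the fold, beside 7.24% of all genes. Of the other lists, 3 of 7 counted hypoxia response genes (Vegfa, Bnip3 and Adm) passed, with 1 of 17 counted complex IV and III assembly genes (Uqcc2), 0 of 3 counted cytochrome c and supercomplex genes and 0 of 2 counted uncoupling and ATPase inhibitor genes. Ppargc1a, a coactivator of mitochondrial biogenesis, had 10, 65 and 18 UMIs there, 213, 181 and 243 CPM, against at most 0.6 CPM in mature neutrophil-like and in progenitor-like cells. Sdha of complex II stood at 298, 206 and 257 CPM in strial and 45.6, 44.0 and 38.5 CPM in mature neutrophil-like cells. Tfam, in contrast, had 0, 4 and 1 UMIs in strial cells, too few to compare.

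Between libraries the mitochondrial and nuclear sets took opposite sides. Library 1 had the highest mitochondrial share in 14 of 14 compared types and in 10 of 10 smaller types with cells in every library, and the lowest nuclear share in 11 of 14 and 9 of 10. The mitochondrial share in library 1 was a median of 1.54 times (range 1.12 to 2.25) that in library 2 and 1.501 times (1.12 to 2.43) that in library 3 over the 14 types, while the nuclear share was 0.86 (0.76 to 1.26) and 0.89 (0.71 to 1.12) times. Libraries 2 and 3 were alike in the mitochondrial share, with a median ratio of 0.96. Which of control, HHL and NIHL each library is was not known, and 1 library of each cannot separate the library from the group.

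Counted by gene and type at 1.5-fold or more, mitochondrial genes were higher in library 1 than in library 2 in 111 of 182 cases (61.0%) and than in library 3 in 96 of 182 (52.7%), and lower in none. Over all genes of the 14 types the same calls took 18.5% and 22.5%. Nuclear genes were lower in library 1 in 143 of 1131 cases (12.6%) against library 2 and in 155 of 1140 (13.6%) against library 3, near the 9.74% and 11.4% of all genes, and higher in 54 (4.77%) and 21 (1.84%), well under all genes. These counts depend on the scaling: with TMM factors the nuclear genes lower in library 1 were 228 and 279, and the mitochondrial genes higher in it than in library 3 were 58. TMM factors shift all genes of a library together, and the share of all genes was not counted with them. In cells of 2000 to 8000 UMIs only, library 1 had the lowest nuclear share in 6 of 14 types. Median UMIs per cell were lowest in library 1 in 11 of 14 types, and the summed list of genes typical of free RNA was lowest in it in 9 of 14 and highest in 1. The 5 stress or dissociation genes were highest in it in 6 of 14 and lowest in 4. The part of these measures in the result was not tested.

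The mitochondrial genes did not shift alike. mt-Nd5, a proton-pumping complex I subunit, was the most regular: it was at least 1.5-fold higher in library 1 than in both others in 13 of 14 types, with median ratios of 2.19 and 1.95, and stood at 213, 62.6 and 70.2 CPM in mature neutrophil-like cells. The same held for mt-Co2 and mt-Nd4 in 9 types each and mt-Co1 in 7, while mt-Co3 had median ratios of 1.18 and 1.31 and mt-Nd3 of 1.18 and 1.22. mt-Atp8, whose reading frame overlaps that of mt-Atp6 so that reads may be shared, was lowest in library 2 in all 14 types, by at least 1.5-fold from both others in 10, as in erythroid-like cells with 118, 26.8 and 61.3 CPM. It was at least 1.5-fold higher in library 1 than in both others in 6 types. These differences between genes of 1 genome meant that mt-Co1 made 23.2%, 22.3% and 16.9% of all mitochondrial UMIs and mt-Atp6 18.1%, 16.1% and 19.0%.

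**Figure D5:**
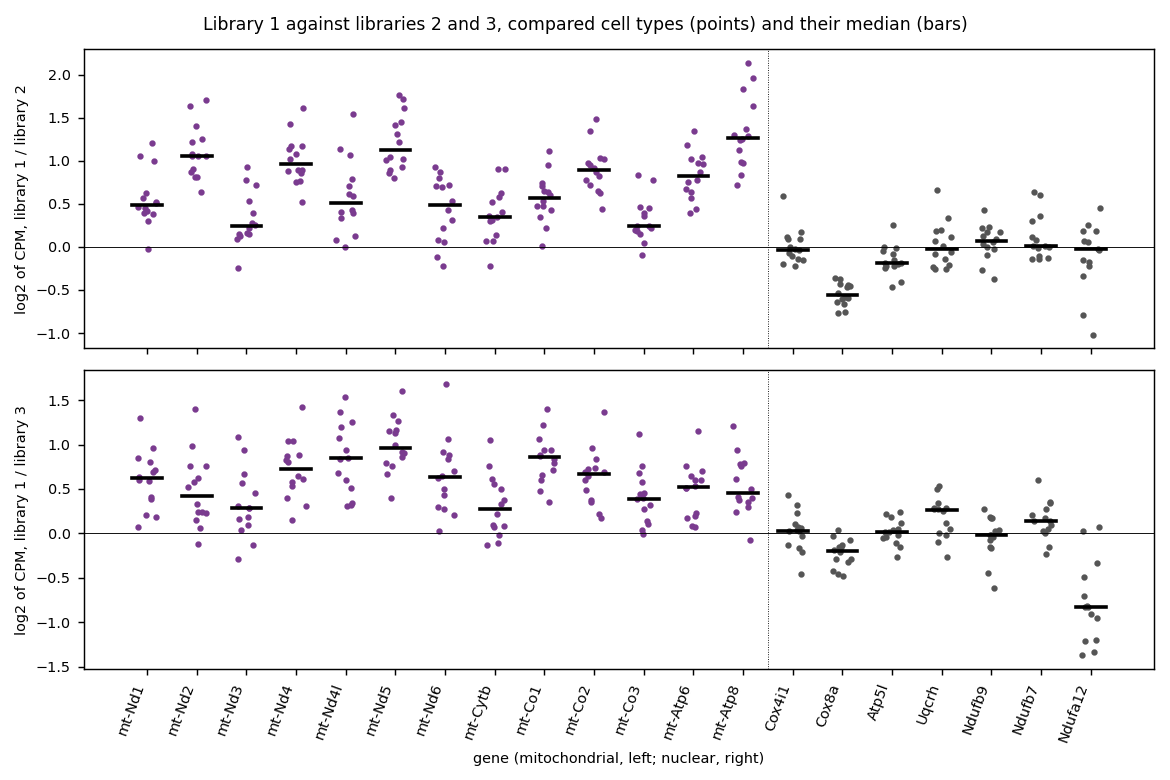
Log2 ratio of CPM (y axis) of library 1 over library 2 (top) and over library 3 (bottom) for the 13 mitochondrial and 7 nuclear genes (x axis), with 1 point per compared cell type and bars at the median of the 14 types. Mitochondrial medians are above 0 in both panels, highest for mt-Atp8 and mt-Nd5 at the top, and Ndufa12 lies low at the bottom.

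A few nuclear genes differed by library in a like way across types. Ndufa12, a complex I subunit, was at least 1.5-fold higher in library 3 than in both others in 8 of 14 types. It stood at 94.7, 120 and 245 CPM in progenitor-like, 75.2, 83.7 and 190 CPM in monocyte-like and 29.0, 32.8 and 66.6 CPM in immature neutrophil-like cells, but at 125, 118 and 119 CPM in fibrocyte-like cells. Cox6b2 was lowest in library 3 in 5 of 10 types where it was counted, with 41.7, 70.2 and 23.6 CPM in progenitor-like, 24.8, 36.7 and 13.8 CPM in immature neutrophil-like and 20.1, 29.8 and 13.4 CPM in monocyte-like cells. In monocyte-like cells Atp5g1 stood at 281 CPM in library 1 and 593 CPM in library 3. Among the 14 compared types, 3 did not have the lowest nuclear share in library 1: intermediate neutrophil-like cells, T-like cells, with 2.12%, 2.09% and 2.43%, and erythroid-like cells. The erythroid-like cells had nuclear shares of 2.59%, 2.06% and 2.33%. Of the 89 nuclear genes, not all of them counted, 30 were higher and none lower in library 1 than in library 2. Over all genes 40.6% were higher and 5.55% lower, so the count of higher nuclear genes did not exceed the share of all genes. Hemoglobin took 15.0% of their UMIs in library 1 and 33.8% in library 2. Cox6a2 in immature neutrophil-like cells was a rare-gene case, with 73 UMIs in library 1 and 1 UMI in library 2, or 2.24 and 0.14 CPM.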

How the data were processed

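Single-cell RNA libraries of cochlea (10x 3′ chemistry, per the labels' protocols) were deposited as 1 merged table of UMI counts per gene and barcode, written by Cell Ranger 7.1.0, per the file headers. The submitters' processing notes name GRCm39 as the build, and no further step by the authors is stated. Barcodes with at least 500 UMIs, 200 genes and at most 20% mitochondrial UMIs were kept. A cell received a type when it held at least 3 markers of a list and their summed UMIs per 10000 reached a floor of 8 to 256, which was set after seeing each list's distribution. Cells passing the gates of several types (1317, 559 and 560) were left out unless they were neighbouring stages. Without gate were 1175, 1373 and 2305 cells. Scrublet called 5.63%, 4.69% and 4.73% of barcodes doublets, which served as an alternative.

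UMIs were summed per type and library. Intervals are exact at 95% (Poisson or Clopper-Pearson) and cover counting error only. A gene was called between types at 2-fold from the median of the other compared types in every library and between libraries at 1.5-fold, with at least 20 UMIs summed and counts below 3 set to 3. Types with under 50 cells in a library were set against the median of the 14 compared types, a choice made after seeing the data. The calling rules were tried on simulated Poisson counts, between types at 1.5-fold and not at the 2-fold used here. Overlapping mitochondrial genes and processed pseudogenes make single counts uncertain. Genes named with values were the highest per group, the calls with the largest ratios, the paralog pairs and the mitochondrial genes. The members, lists and gates were chosen with earlier results of these data known. Promoters came from RefSeq tables of another build (GRCm38.p6) and matched 72 of 89 nuclear genes. The tools were pandas 2.3.3, numpy 2.4.6, scipy 1.17.1 and scanpy 1.11.5 under Python 3.11.15 and, for TMM factors, edgeR 4.0.16 under R 4.3.3.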

Additional observations from a re-analysis of the deposited data

How the results depend on the processing

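No paired analysis was possible because each group has 1 library and the columns carry no sample label. Of 146 summary values under 14 other settings, 129 stayed within 1.5 times the reported count or, for shares, within the reported 95% interval, and 17 moved. With a 2-fold rule between libraries, mitochondrial genes were higher in library 1 in 50 and 27 cases and nuclear genes lower in 11 and 21. With TMM factors the mitochondrial count against library 3 was 58, the nuclear counts 228 and 279, the genes lower in mature neutrophil-like cells 32 and the higher calls over types 51. That last count was 56 at 1.5-fold, 21 without hemoglobin UMIs and 20 in cells of 2000 to 8000 UMIs. In that depth window, which was chosen after seeing the data, the nuclear share was lowest in library 1 in 6 types, the nuclear genes higher in progenitor-like than mature cells were 39, and pooled shares were 45.0% for Cox8b in strial cells (31.1% at a mitochondrial maximum of 10%, 33.8% as reported) and 34.7% for Cox6b2 in erythroid-like cells (23.4%). Library 1 had the highest mitochondrial share in at least 13 of 14 types in every setting. The share of all genes past each rule was not counted under the other settings, so these counts lack that comparison. The cause of these moves was not tested. Depth limits the strial, pericyte-like and hair cells most, and mice were pooled, so no spread between animals can be given.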

Other observations

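The genes whose levels ordered the 74 points of cell type and library most like a paralog were found by Spearman's rho over 16105 genes, as a description in which points of a library share depth. For Ndufa4l2 they were Pcdh18 (0.82), Pla2r1 (0.78), Pde1a (0.77), Pgf (0.77) and Gucy1a1 (0.77), the last encoding a subunit of the nitric oxide receptor of smooth muscle. For Cox6a2 they were Polq (0.68), Mcoln2 (0.63), Cd2 (0.63), Tmem163 (0.62) and Sla2 (0.62). For Cox8b, which was added after its values were seen, they were Ogdhl (0.74), Gpr37 (0.64), Gjb6 (0.62), Mpzl2 (0.61) and Megf10 (0.59). Ogdhl encodes a relative of the 2-oxoglutarate dehydrogenase of the citric acid cycle, and Gjb6 connexin 30 of the stria and supporting cells.

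In pro-B or pre-B-like cells Cox6a2 had 37 UMIs in all. Inner ear epithelial cells held Cox7a1 with 41 UMIs in 19 of 67 cells, 8.99% of its pair, and Cox4i2 with 19 UMIs in 8 of 67 cells, 2.41% of its pair. The 22 hair cells had 6 UMIs of Cox4i2 in 3 cells.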
